A study of Mus musculus with 12 samples.

Results

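Imprinted genes are expressed mainly from the copy inherited from 1 parent, and their levels were followed here in mouse embryonic stem cells (ESCs). The members were taken from a list of 39 imprinted genes, grouped by imprinted domain and by the parental copy that textbook knowledge gives as expressed. Of these, 38 were found by name in a table of 23496 genes, and 33 reached the level needed for testing. H19, a maternally expressed noncoding RNA beside Igf2, was not matched to an entry through the accessions that the name tables used here give for it, and no values are given under its name.

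The 12 RNA-seq libraries form 3 groups of 4. ESCs labelled as Tfcp2l1 knockout were kept in 2i, which is free of serum and combines LIF, a cytokine, with CHIR99021 against the kinase GSK3 (3 µM) and PD0325901 against the kinase MEK (1 µM). Wild-type ESCs were kept in the same 2i medium. The remaining group was wild-type ESCs in a medium that holds 15% serum (fetal bovine serum, FBS) and no inhibitors. LIF was at 1000 units/mL in all 3 groups. Knockout was compared with wild type in 2i to find transcripts regulated by Tfcp2l1, a transcription factor of naive pluripotency, and wild type in 2i was compared with wild type in FBS for the effect of the medium. The labels give no strain, line, clone or sex of the cells. They also do not say whether the libraries of a group are separate cultures. The p-values therefore cover the spread between these libraries alone, and that spread may be technical.

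An imprint is a mark, mostly DNA methylation, that is set on a control region in the egg or the sperm and kept on that parental copy after fertilisation. Several imprinted genes often lie together in a domain under 1 control region, and many of them act in fetal and placental growth, in metabolism and in the brain. ESCs in 2i are known for low DNA methylation across the genome, and imprinted genes are known to vary between ESC cultures. The values here add up the RNA of the maternal and paternal copies, so a level does not show which copy was transcribed.

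Levels are FPKM values (fragments mapped to a transcript, relative to its length and to the library's fragments) that the authors deposited, added up over the RefSeq entries of a gene. They summed to between 347772 and 358340 FPKM per library, 11542 to 11869 genes per library reached 1 FPKM, and the read depth behind them is unknown. Tfcp2l1 averaged 78.9 ± 5.92 FPKM in the knockout and 132 ± 13.8 FPKM in wild type in 2i (SD, n = 4 each), so the libraries labelled knockout held 59.8% of the wild-type level (two-sided exact permutation p = 0.0286, with 70 splits giving no smaller value). This level is of the whole transcript, so it is no check of the label. The 10 ESC markers listed for this work were expressed in every library, with Pou5f1, which encodes OCT4, at 780.3 to 838 FPKM in the knockout, 843 to 992 FPKM in wild type in 2i and 705 to 866 FPKM in wild type in FBS. Of the 10, 1 was called higher and 5 lower in the knockout than in wild type in 2i, and 6 higher and 1 lower in 2i than in FBS. Pou5f1 was among the 5 and among the 6. The shares over all genes tested were 24% higher and 21.4% lower in the knockout, and 37.1% and 35.3% between media. A change in a bulk sample can come from fewer cells of a type or from less RNA per cell, and these cannot be told apart. The 20 fibroblast markers listed for this work, mostly collagens and other matrix genes, moved with the groups. Their FPKM summed to 413 to 701 in the knockout, 226 to 362 in wild type in 2i and 108 to 146 in wild type in FBS. Of the 20, 18 were called higher and 0 lower in the knockout than in wild type in 2i, 10 were called higher and 5 lower in 2i than in FBS, and none was at 0 in every library.

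Promoter sequence was available for 31 of the 38 members, from RefSeq on GRCm38.p6, as windows of 300 bases from 250 before to 50 after a start. The windows below lie at members whose levels are described in full further on: the shared start of Peg3 and Usp29, and starts of Meg3, Mest and Plagl1. For Meg3, Mest and Plagl1, the first window that holds the motif marked below was taken. The first window is chr7:6730333-6730632 on the plus strand, and its capitals mark the bases from the start of Peg3, on the minus strand, to the start of Usp29, on the plus strand, which are 164 bases apart.
Peg3 and Usp29: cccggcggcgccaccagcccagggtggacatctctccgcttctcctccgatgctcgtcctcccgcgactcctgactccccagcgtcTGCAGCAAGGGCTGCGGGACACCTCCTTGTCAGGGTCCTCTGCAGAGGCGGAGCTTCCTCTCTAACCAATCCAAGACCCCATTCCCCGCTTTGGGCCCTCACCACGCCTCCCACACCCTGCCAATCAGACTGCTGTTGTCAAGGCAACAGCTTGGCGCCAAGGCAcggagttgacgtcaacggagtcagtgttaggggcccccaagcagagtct
The next windows are Meg3 at chr12:109540746-109541045, Mest at chr6:30737800-30738099 and Plagl1 at chr10:13090582-13090881, all on the plus strand. Capitals mark TGCCGC or its reverse complement GCGGCA, the 6 letters that the imprint-keeping protein ZFP57 is known to bind when they are methylated.
Meg3: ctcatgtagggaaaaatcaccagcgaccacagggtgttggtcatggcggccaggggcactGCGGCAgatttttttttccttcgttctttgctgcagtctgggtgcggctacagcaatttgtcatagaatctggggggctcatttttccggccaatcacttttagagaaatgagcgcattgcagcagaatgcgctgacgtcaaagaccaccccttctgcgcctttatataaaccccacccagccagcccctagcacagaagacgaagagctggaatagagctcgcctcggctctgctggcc
Mest: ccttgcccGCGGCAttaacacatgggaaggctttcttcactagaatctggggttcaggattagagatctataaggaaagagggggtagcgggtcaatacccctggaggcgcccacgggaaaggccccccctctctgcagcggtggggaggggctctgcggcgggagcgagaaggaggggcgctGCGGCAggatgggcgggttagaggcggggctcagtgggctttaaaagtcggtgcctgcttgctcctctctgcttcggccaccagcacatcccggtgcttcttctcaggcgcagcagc
Plagl1: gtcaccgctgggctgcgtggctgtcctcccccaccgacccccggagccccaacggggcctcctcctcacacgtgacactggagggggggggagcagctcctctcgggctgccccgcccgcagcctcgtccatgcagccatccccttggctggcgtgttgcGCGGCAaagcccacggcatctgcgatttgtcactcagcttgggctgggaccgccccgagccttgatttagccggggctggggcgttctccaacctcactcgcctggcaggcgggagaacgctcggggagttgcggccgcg
These letters, searched on both strands, stood in 11 of the 50 windows of members (22.0%), at 10 genes, and in 11.6% of the 32851 windows of all genes. The motif occurred 2 times in the Mest window, 1 time each in the Meg3 and Plagl1 windows and not at all in the window shared by Peg3 and Usp29. The Mest, Meg3 and Plagl1 windows were picked for holding it, so its presence there is no result. Another window of Meg3 and another of Mest held 0. Members' windows held a median of 13 CpG sites, against 7 for all windows. A match is a description of the letters and not of a bound or methylated site.

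In the knockout, 18 of the 33 tested imprinted genes were called higher and 3 lower than in wild type in 2i, and 12 were not called. A call is a limma adjusted p under 0.05 on log2(FPKM + 1), a scale that understates the change of low genes. Over all 12329 genes tested, 24% were called higher, 21.4% lower and 45.3% in either direction. On this scale the largest rises among the called members were those of Peg10, Cdkn1c and Peg3, and the falls were those of Slc38a4, Ddc and Zrsr1. By the ratio of mean FPKM, knockout over wild type in 2i, the order was another. It ran Usp29 at 5.11, Cdkn1c at 3.91, Peg10 at 3.71, Magel2 at 3.07, Sfmbt2 at 2.287 and Peg3 at 2.282. Knockout libraries did not overlap wild-type libraries in 2i for 17 members that were higher and 3 that were lower, where 23.7% and 20.4% of all genes tested, 44.1% together, stood apart in that way. The median log2 difference was 0.26 over the 33 members and 0.012 over all genes. Usp29 and Magel2 reached the level needed for testing only through libraries of the knockout or of FBS, so their calls were in part set by that filter. With no filter on level, 17 of the 38 members were called higher and 3 lower. That setting called 3646 genes higher and 2896 lower over all genes, out of a larger number than the 12329 above.

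Between media, 4 imprinted genes (Plagl1, Zrsr1, Ddc and Grb10) were called higher and 20 lower in 2i than in FBS, and 9 were not called. Over all genes tested, 37.1% were called higher, 35.3% lower and 72.4% in either direction. Libraries did not overlap for 4 members higher in 2i and 17 lower in 2i, where 32% and 30.5% of all genes, 62.5% together, stood apart. The median log2 difference was -0.49 over members and 0.014 over all genes. Both comparisons use the 4 wild-type libraries in 2i, so their differences for a gene are not independent. They are given side by side below as the log2 difference of knockout minus wild type in 2i and of 2i minus FBS in wild type.

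By parental copy, 15 of the 23 tested paternally expressed members were called higher in the knockout and 3 lower, and 2 of the 9 maternally expressed members, Ube3a and Cdkn1c, were called higher and 0 lower. In 2i against FBS, 3 paternally expressed members were called higher and 17 lower, and 1 maternally expressed member was called higher and 3 lower. The shares over all genes tested were 24% higher and 21.4% lower in the knockout, and 37.1% higher and 35.3% lower between media. Gnas, which has transcripts from either copy, was called higher in the knockout and was not called between media. The copies are those of textbook knowledge and were not measured here. Ube3a is counted as maternal from neurons, and Ddc, Gab1 and Inpp5f as paternal from heart, placenta and brain. These counts therefore hold genes that may not be imprinted in ESCs. Whether paternally and maternally expressed members differ was not tested.

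**Figure D1:**
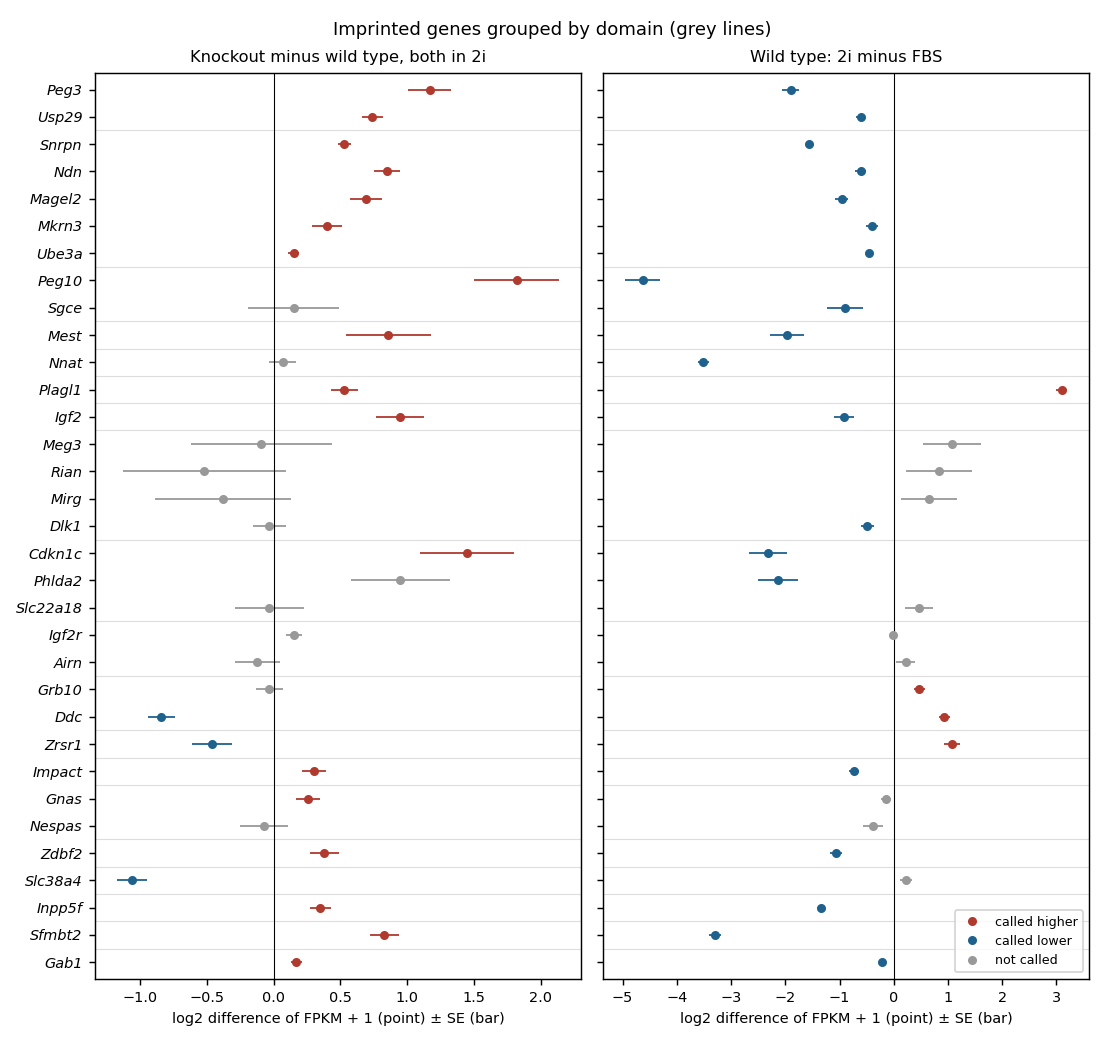
Log2 differences of FPKM + 1 (horizontal axis, point) ± SE (bar) for the 33 tested imprinted genes (rows, in order of domain), knockout minus wild type in 2i on the left and 2i minus FBS in wild type on the right. Red points were called higher, blue lower and grey not called. Peg10 lies farthest right on the left panel (1.82) and farthest left on the right panel (-4.63), and Plagl1 lies farthest right on the right panel (3.10).

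Peg3 and Usp29 start beside each other, as the window printed above shows, and are transcribed in opposite directions from the paternal copy. Peg3 encodes a zinc-finger protein (NM_008817; mm9, chromosome 7, 6658671 to 6683130). It stood at 60.4, 66.5, 48.3 and 45.6 FPKM in knockout replicates 1 to 4, 27.2, 31.3, 19.1 and 19.1 FPKM in wild type in 2i and 90.0, 94.0, 82.1 and 98.0 FPKM in wild type in FBS. All 4 knockout libraries lay above all 4 wild-type libraries in 2i and below all 4 in FBS. Its log2 difference was 1.17 (SE 0.16, adjusted p = 8.93e-05) in the knockout and -1.90 (SE 0.16, adjusted p = 2.42e-07) between media. Usp29, a ubiquitin-specific protease gene (mm9, chromosome 7, 6683452 to 6919931), had 1.06, 1.02, 1.07 and 0.837 FPKM in the knockout, 0.157, 0.194, 0.241 and 0.189 FPKM in wild type in 2i and 0.708, 0.684, 0.794 and 1.15 FPKM in FBS. It was low throughout, and its knockout libraries stood clear of wild type in 2i (0.74, SE 0.08, adjusted p = 2.42e-05). The 2i libraries of wild type were also below the FBS libraries (-0.61, SE 0.08, adjusted p = 2.32e-05). Zim1, a maternally expressed zinc-finger gene of the same domain, did not reach the level for testing and lay between 0.128 and 0.414 FPKM over the 12 libraries.

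In the Snrpn domain on chromosome 7, the 5 listed members were called higher in the knockout and lower in 2i than in FBS. Snrpn encodes a protein of small nuclear ribonucleoproteins (mm9, 67127388 to 67150042 for its main entry, NM_013670). It had 64.4, 62.8, 66.6 and 66.7 FPKM in the knockout, 46.8, 46.8, 44.8 and 41.6 FPKM in wild type in 2i and 134, 139.5, 126 and 142 FPKM in FBS, with libraries of a group close together and the 3 groups apart. The log2 difference was 0.53 (SE 0.05, adjusted p = 5.75e-06) in the knockout and -1.57 (SE 0.05, adjusted p = 8.5e-11) between media. Ndn encodes necdin, a MAGE-family protein (mm9, 69493163 to 69494813), and stood at 9.95, 10.9, 10.0 and 10.2 FPKM in the knockout, 4.50, 4.69, 6.68 and 5.26 FPKM in wild type in 2i and 8.33, 9.22, 7.37 and 9.25 FPKM in FBS. Its knockout libraries were above those of wild type in 2i (0.85, SE 0.10, adjusted p = 3.07e-05), which were below FBS (-0.61, SE 0.10, adjusted p = 0.000108). Magel2, another MAGE-family gene, had 1.21, 1.45, 1.28 and 1.18 FPKM in the knockout, 0.473, 0.335, 0.553 and 0.306 FPKM in wild type in 2i and 1.33, 2.29, 1.32 and 2.21 FPKM in FBS. None of the wild-type libraries in 2i reached 1 FPKM, and all of the others did (0.69, SE 0.12, adjusted p = 0.000621 in the knockout, -0.96, SE 0.12, adjusted p = 1.06e-05 between media).

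Mkrn3, which encodes a makorin RING-finger protein, had 2.72, 2.84, 3.00 and 2.64 FPKM in the knockout, 1.58, 1.71, 2.32 and 1.95 FPKM in wild type in 2i and 2.05, 3.13, 2.84 and 3.30 FPKM in FBS. The knockout stood apart from wild type in 2i (0.40, SE 0.11, adjusted p = 0.00891), while the media overlapped in part (-0.40, SE 0.11, adjusted p = 0.00453). Ube3a encodes a ubiquitin ligase that is imprinted in neurons, where the maternal copy is used, and is generally expressed from either copy elsewhere. It stood at 9.94, 10.2, 10.1 and 9.83 FPKM in the knockout, 8.98, 9.20, 8.81 and 8.77 FPKM in wild type in 2i and 12.4, 12.8, 12.5 and 12.5 FPKM in FBS. Its differences were small and larger than its narrow spread (0.15, SE 0.04, adjusted p = 0.00856 in the knockout, -0.45, SE 0.04, adjusted p = 4.36e-07 between media).

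**Figure D2:**
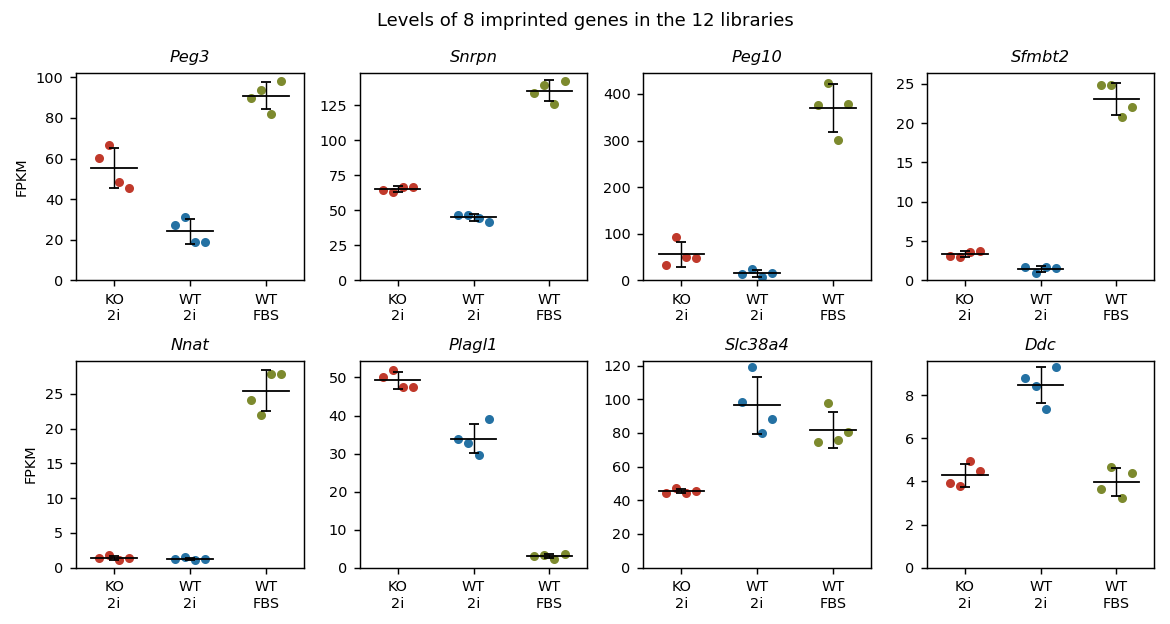
FPKM (vertical axes, linear, from 0) of 8 imprinted genes in each library (points, 4 per group), with the group mean (line) ± SD (bar), for knockout in 2i, wild type in 2i and wild type in FBS. Peg3, Snrpn, Peg10 and Sfmbt2 have knockout means above wild type in 2i and below FBS, Nnat averages 1.43 FPKM in the knockout and 1.31 FPKM in wild type in 2i, and Slc38a4 and Ddc are lower in the knockout than in wild type in 2i.

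The genes of chromosome 6 among the members were Peg10, Sgce, Mest and Nap1l5. Genes of that chromosome shifted together between libraries, with median offsets from -0.165 in FBS replicate 3 to 0.211 in replicate 4 of wild type in 2i, as log2 values. Peg10, a gene derived from a retrotransposon and needed in the placenta (NM_001040611; mm9, 4697306 to 4710516), had the largest differences of the tested members on the log2(FPKM + 1) scale in either comparison. By the ratio of mean FPKM it was also the most changed between media, and in the knockout it came after Usp29 and Cdkn1c. It stood at 32.0, 93.8, 49.8 and 47.2 FPKM in the knockout, 13.7, 24.1, 7.42 and 14.9 FPKM in wild type in 2i and 376, 424, 300.3 and 379 FPKM in FBS. The groups did not overlap, and the log2 difference was 1.82 (SE 0.32, adjusted p = 0.000685) in the knockout and -4.63 (SE 0.32, adjusted p = 5.42e-08) between media. With the chromosome's offset removed these were 1.96 (adjusted p = 0.00013) and -4.75 (adjusted p = 1.08e-08). Sgce encodes epsilon-sarcoglycan and starts beside Peg10. It had 3.48, 8.67, 5.53 and 5.27 FPKM in the knockout, 5.60, 10.2, 1.77 and 4.64 FPKM in wild type in 2i and 11.4, 9.30, 11.6 and 7.68 FPKM in FBS. Knockout and wild type overlapped (0.15, SE 0.34, adjusted p = 0.739, not called), and so did 2i and FBS, where the gene was called lower in 2i (-0.90, SE 0.34, adjusted p = 0.0307). That call was lost without any of 4 libraries in turn, among them wild type in 2i replicate 3 (adjusted p = 0.0818).

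Mest, whose window is printed above, encodes a hydrolase-like protein (mm9, 30688050 to 30698466 for NM_008590). It had 23.0, 32.6, 19.5 and 19.4 FPKM in the knockout, 11.7, 6.85, 10.7 and 25.6 FPKM in wild type in 2i and 68.1, 37.1, 42.5 and 63.7 FPKM in FBS. Replicate 4 of wild type in 2i lay within the knockout range, and the call in the knockout (0.86, SE 0.32, adjusted p = 0.0423) was lost when any of 7 of the 8 libraries of the comparison was left out (adjusted p = 0.0517 to 0.125). With the offset of chromosome 6 removed the difference was 1.00 (adjusted p = 0.0158). Between media all 2i libraries were below all FBS libraries (-1.97, SE 0.32, adjusted p = 9.78e-05). Nap1l5, of the nucleosome assembly protein family, lay between 0.379 and 1.505 FPKM over the 12 libraries and was not tested.

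Nnat and Sfmbt2, on chromosome 2, were among the members with the largest difference between media. Nnat encodes neuronatin, a small membrane protein (mm9, 157385846 to 157388255). It had 1.33, 1.81, 1.12 and 1.46 FPKM in the knockout and 1.30, 1.52, 1.17 and 1.25 FPKM in wild type in 2i, against 24.1, 21.9, 27.9 and 27.9 FPKM in FBS. Knockout and wild type overlapped (0.07, SE 0.10, adjusted p = 0.598, not called), and 2i was far below FBS (-3.51, SE 0.10, adjusted p = 5.51e-11). Sfmbt2, a Polycomb-group gene needed in the placenta (mm9, 10292078 to 10516880), stood at 3.04, 2.95, 3.66 and 3.73 FPKM in the knockout, 1.65, 0.963, 1.68 and 1.56 FPKM in wild type in 2i and 24.8, 24.8, 20.8 and 22.0 FPKM in FBS. Its knockout libraries were above wild type in 2i (0.83, SE 0.11, adjusted p = 6.65e-05) and far below FBS, and 2i was lower than FBS (-3.30, SE 0.11, adjusted p = 9.77e-11).

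Plagl1 encodes a zinc-finger transcription factor and had the largest rise in 2i over FBS among the members (mm9, chromosome 10, 12810594 to 12851501). It stood at 50.2, 52.0, 47.5 and 47.5 FPKM in the knockout, 33.9, 32.9, 29.8 and 39.1 FPKM in wild type in 2i and 3.02, 3.36, 2.32 and 3.69 FPKM in FBS. The 3 groups did not overlap, and the knockout lay above both wild-type groups. The log2 difference was 0.53 (SE 0.10, adjusted p = 0.00106) in the knockout and 3.10 (SE 0.10, adjusted p = 1.03e-10) between media. Plagl1 was the 1 member called higher in the knockout and also higher in 2i than in FBS.

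Igf2 encodes a fetal growth factor and lies in a domain on chromosome 7 (mm9, 149836673 to 149846940 over its entries). It had 58.1, 73.0, 76.0 and 99.4 FPKM in the knockout, 30.4, 33.8, 41.8 and 50.4 FPKM in wild type in 2i and 83.5, 87.0, 69.3 and 58.0 FPKM in FBS. Knockout libraries were above wild type in 2i (0.95, SE 0.18, adjusted p = 0.00112), which were below FBS (-0.92, SE 0.18, adjusted p = 0.000516). In the knockout and in wild type in 2i, the order of the 4 libraries by Igf2 was also their order by the mean log2 level of the fibroblast markers, 4, 3, 2 and 1 from high to low. That level was 3.40, 3.59, 3.76 and 4.07 in knockout replicates 1 to 4 and 2.75, 2.87, 3.12 and 3.25 in wild type in 2i. In FBS it was 2.5, 2.29, 2.37 and 2.18, the lowest of the groups, and Igf2 was about as high there as in the knockout. With the fibroblast level in the model the Igf2 difference in the knockout was 0.10 (adjusted p = 0.714).

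Igf2 was deposited as 3 entries that differ in their start and share exons, so the way Cufflinks divided reads between them is uncertain. NM_001122737, with the start nearest the gene's end, held a mean 67.8% of Igf2 FPKM in the knockout, 71.4% in wild type in 2i and 36.5% in FBS. NM_010514 held 28.4% in the knockout, 25.2% in wild type in 2i and 56.9% in FBS, and NM_001122736 held 3.77% in the knockout, 3.35% in wild type in 2i and 6.61% in FBS. Shares of NM_001122737 ranged over 67% to 68.7% in the knockout, 70% to 73.5% in wild type in 2i and 32% to 40% in FBS, so 2i and FBS stood well apart. NR_001592, an entry on the same chromosome 72.6 kb from Igf2 (mm9, 149761437 to 149764051) to which the name tables used here give no name, had 182.7, 226, 246.3 and 310.8 FPKM in the knockout, 104.9, 113.9, 137.6 and 168.6 FPKM in wild type in 2i, and 223, 129.8, 465.1 and 250 FPKM in FBS. It was called higher in the knockout (log2 difference 0.87, SE 0.30, adjusted p = 0.0322) and lower in 2i than in FBS (-0.90, SE 0.30, adjusted p = 0.0171), with 2i and FBS overlapping.

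**Figure D3:**
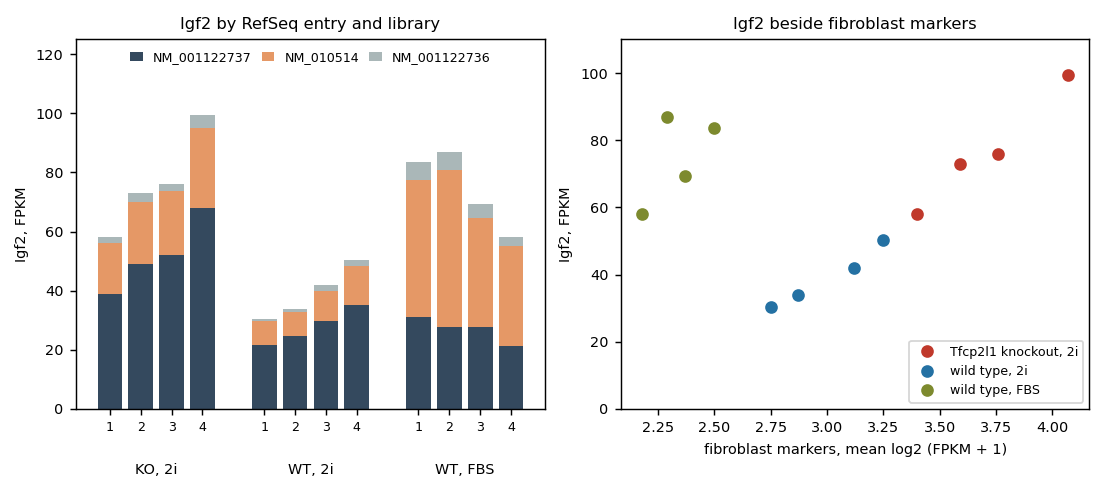
Left: FPKM of Igf2 (vertical axis) in each library (bars, labelled by replicate), divided by RefSeq entry. Right: Igf2 FPKM (vertical axis) beside the mean log2(FPKM + 1) of 20 fibroblast markers (horizontal axis) in the 12 libraries (points). NM_001122737 makes up most of Igf2 in the knockout and in wild type in 2i, and NM_010514 in FBS. In the 8 libraries in 2i the points run upwards, and the FBS points lie apart at the lowest marker levels.

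In the Dlk1 domain on chromosome 12 the maternally expressed noncoding RNAs Meg3, Rian and Mirg varied widely from library to library. Meg3 (mm9, 110779206 to 110809939), whose window is printed above, had 26.5, 12.01, 5.65 and 36.8 FPKM in the knockout, 10.6, 20.6, 9.81 and 42.0 FPKM in wild type in 2i and 6.77, 6.59, 5.98 and 13.4 FPKM in FBS. The highest knockout library was 6.52 times the lowest, and the groups overlapped. Rian, a host of small nucleolar RNAs, stood at 14.3, 5.60, 1.89 and 16.7 FPKM in the knockout, 6.48, 14.3, 4.95 and 31.0 FPKM in wild type in 2i and 3.94, 4.84, 4.48 and 12.4 FPKM in FBS, with an 8.82-fold range in the knockout. Mirg, a host of many microRNAs, had 3.09, 1.14, 0.317 and 3.85 FPKM in the knockout, 0.859, 2.62, 1.48 and 8.61 FPKM in wild type in 2i and 0.715, 1.08, 0.817 and 3.06 FPKM in FBS, with a 12.2-fold range in the knockout. Replicate 4 was the highest library of all 3 genes in every group, and in the knockout the order of the libraries from high to low, 4, 1, 2 and 3, was the same for all 3.

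None of the 3 was called in either comparison, although Meg3 was called higher in 2i than in FBS when the 8 libraries of that comparison were fitted alone (adjusted p = 0.0415). The knockout differences were -0.09 for Meg3, -0.52 for Rian and -0.38 for Mirg, and the differences between media were 1.07, 0.84 and 0.65 for the same genes. Among all 12329 genes tested, ordered by the spread of libraries within groups from the widest, Rian ranked 20, Meg3 23 and Mirg 25. The paternally expressed genes of the domain were low. Dlk1, which encodes a Delta-like transmembrane protein, had 0.554, 0.715, 0.618 and 0.855 FPKM in the knockout, 0.477, 0.630, 0.768 and 1.06 FPKM in wild type in 2i and 1.73, 1.53, 1.51 and 0.954 FPKM in FBS. It was not called in the knockout (-0.03, SE 0.12, adjusted p = 0.841) and was called lower in 2i than in FBS with overlapping libraries (-0.49, SE 0.12, adjusted p = 0.00255); it reached 1 FPKM in 1 wild-type library in 2i and in 3 in FBS. Rtl1, a gene derived from a retrotransposon, was between 0.00965 and 0.121 FPKM and was not tested. Within 1 Mb on either side of the listed members, 11 other genes were tested. Their within-group SD had a median of 0.10 and reached 0.35 (Dio3) on the log2 scale, against 1.02 for the widest member. Dio3, Begain and Wars among them are on the further list of imprinted genes below, so these are not all genes without imprinting.

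The Kcnq1 domain on chromosome 7 holds maternally expressed genes that restrain growth, and its members also varied widely within groups. Cdkn1c encodes the cyclin-dependent kinase inhibitor p57 (mm9, 150644244 to 150646955). It stood at 3.44, 9.34, 6.79 and 7.23 FPKM in the knockout, 2.13, 1.79, 1.56 and 1.38 FPKM in wild type in 2i and 23.6, 18.7, 6.90 and 7.55 FPKM in FBS. All knockout libraries were above all wild-type libraries in 2i (1.45, SE 0.35, adjusted p = 0.00472), which were below all FBS libraries (-2.32, SE 0.35, adjusted p = 5.25e-05). With the fibroblast level in the model the knockout difference was 0.98 (adjusted p = 0.326). Phlda2, which encodes a protein that restrains placental growth (mm9, 150687453 to 150688429), had 9.90, 33.2, 30.6 and 32.7 FPKM in the knockout, 13.9, 15.4, 9.03 and 10.6 FPKM in wild type in 2i and 96.4, 64.3, 39.0 and 41.0 FPKM in FBS. Knockout replicate 1 lay within the wild-type range while replicates 2 to 4 lay above it, and the difference just missed the threshold (0.95, SE 0.37, adjusted p = 0.0501). Without knockout replicate 1 it was 1.35 (adjusted p = 0.00242). Between media 2i was lower (-2.14, SE 0.37, adjusted p = 0.000168).

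Slc22a18, a transporter gene of the same domain, averaged 2.42 ± 0.843 FPKM in the knockout, 2.54 ± 1.08 FPKM in wild type in 2i and 1.51 ± 0.681 FPKM in FBS (SD, n = 4 each). It was called in neither comparison (-0.03, SE 0.26, adjusted p = 0.937 and 0.47, SE 0.26, adjusted p = 0.121). Knockout replicate 1 was the lowest of its group for Cdkn1c, Phlda2 and Slc22a18, and also for Peg10 and Sgce on chromosome 6. It was the lowest for Ndn, Igf2, Dlk1, Airn, Zrsr1, Nespas and Slc38a4 too, so this was not particular to 1 domain. The noncoding RNA Kcnq1ot1, which is transcribed from the paternal copy and silences the domain on it, lay between 0.0187 and 0.0551 FPKM and was not tested. Within 1 Mb on either side of the listed members, 19 other genes were tested. Their within-group SD had a median of 0.12 and reached 0.50 (NR_001592), against 0.43 to 0.61 for the 3 tested members. The next widest was Osbpl5 at 0.24. NR_001592 has no name in the name tables used here, so whether it is an imprinted gene was not determined. Ascl2, Cd81, Tspan32, Tssc4, Nap1l4 and Osbpl5 among the 19 are on the further list of imprinted genes below.

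**Figure D4:**
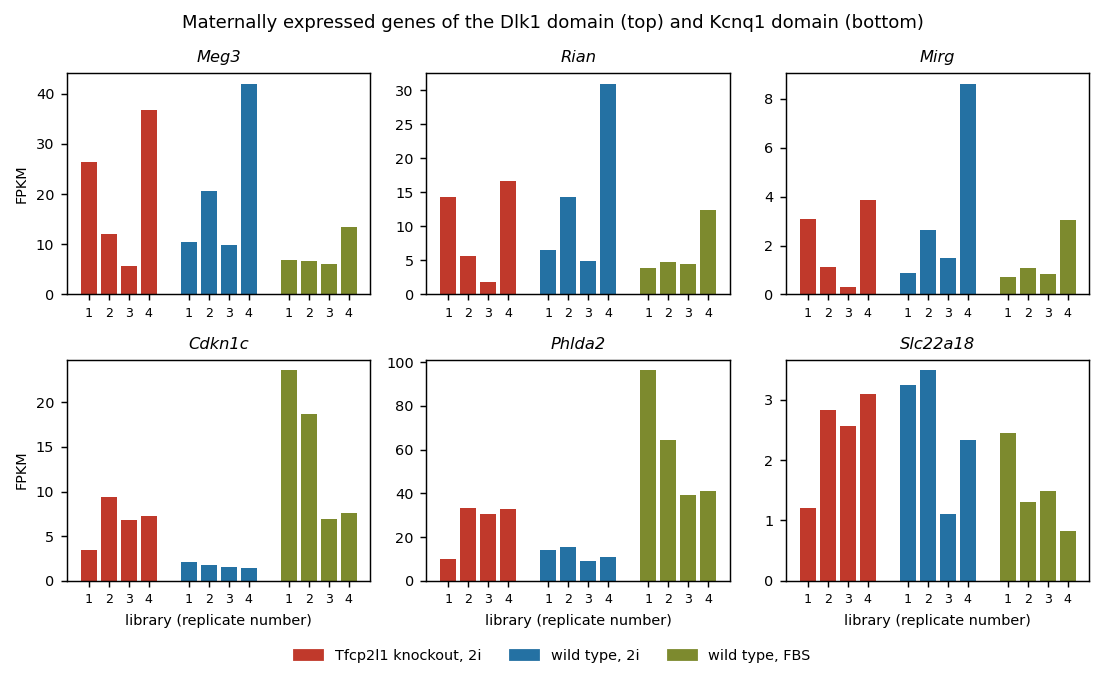
FPKM (vertical axes, from 0) in each library (bars, labelled by replicate and coloured by group) of Meg3, Rian and Mirg of the Dlk1 domain and of Cdkn1c, Phlda2 and Slc22a18 of the Kcnq1 domain. In the top row replicate 4 is the highest bar of each group, and in the bottom row knockout replicate 1 is the lowest knockout bar of each gene.

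The library-to-library spread was wide among the 33 tested members. The within-group SD on the log2 scale had a median of 0.18 over the 33 tested members and 0.11 over all genes tested. Of the members, 8 were among the 1% of all genes with the widest spread and 11 among the widest 5%. The 8 were Rian, Meg3, Mirg, Phlda2, Cdkn1c, Sgce, Peg10 and Mest. Rian, Meg3 and Mirg share a domain, as do Phlda2 and Cdkn1c, and Sgce and Peg10, so they are not independent. In the further list of imprinted genes given below, the widest spread was that of Dio3, which ranked 270 among all genes tested. None of the genes tested from that list was among the widest 1%, so spread this wide was not seen in every imprinted gene listed. Imprinted genes outside the 2 lists were not examined. At the other end, the highest library of a group was at most 1.13 times the lowest for Snrpn, 1.05 times for Ube3a and 1.08 times for Gab1.

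**Figure D5:**
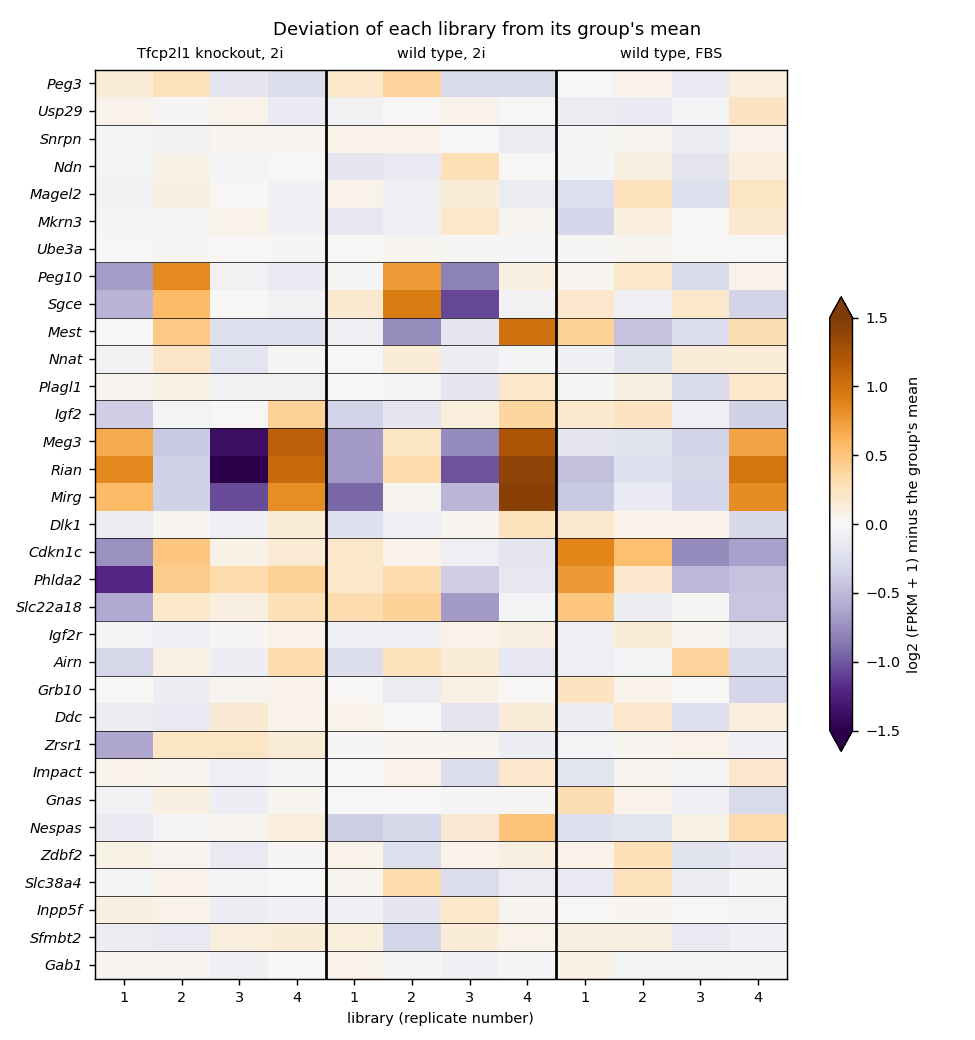
Deviation of each library (columns, 4 per group) from its group's mean on the log2(FPKM + 1) scale (colour, orange above and purple below, arrows mark values past ±1.5) for the 33 tested imprinted genes (rows, by domain). Meg3, Rian and Mirg move together, and knockout replicate 1 is purple for Peg10, Sgce, Cdkn1c, Phlda2, Slc22a18 and Zrsr1, and less so for Igf2 and Airn.

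Slc38a4, an amino acid transporter gene needed in the placenta (mm9, chromosome 15, 96825254 to 96886387), had the largest fall in the knockout among the members. It stood at 44.4, 47.1, 44.5 and 45.5 FPKM in the knockout, 98.3, 119, 79.7 and 88.4 FPKM in wild type in 2i and 74.3, 97.5, 75.6 and 80.4 FPKM in FBS. All knockout libraries lay below all libraries of either wild-type group, and the log2 difference was -1.06 (SE 0.11, adjusted p = 1.24e-05). The media overlapped and the difference between them was not called (0.22, SE 0.11, adjusted p = 0.0811).

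Grb10 and Ddc are neighbours on chromosome 11. Ddc encodes DOPA decarboxylase, which makes dopamine and serotonin and is imprinted in the heart (mm9, 11714104 to 11798147). It had 3.91, 3.78, 4.93 and 4.50 FPKM in the knockout, 8.79, 8.41, 7.35 and 9.31 FPKM in wild type in 2i and 3.65, 4.66, 3.23 and 4.39 FPKM in FBS. Wild type in 2i was above the other groups, with a log2 difference of -0.84 (SE 0.10, adjusted p = 4.78e-05) in the knockout and 0.93 (SE 0.10, adjusted p = 3.82e-06) between media. Grb10 encodes an adaptor of growth factor receptors and had 11.1, 10.4, 11.4 and 11.5 FPKM in the knockout, 11.4, 10.4, 12.2 and 11.5 FPKM in wild type in 2i and 9.53, 8.38, 7.92 and 6.15 FPKM in FBS. It was not called in the knockout (-0.03, SE 0.10, adjusted p = 0.807) and was higher in 2i than in FBS with no overlap (0.47, SE 0.10, adjusted p = 0.000665). Zrsr1, a gene for a splicing-factor-like protein elsewhere on chromosome 11 (mm9, 22872005 to 22876496), is a retrotransposed copy of an X-linked gene with which it may share reads. It had 6.10, 11.7, 11.6 and 11.0 FPKM in the knockout, 14.1, 14.3, 14.2 and 12.9 FPKM in wild type in 2i and 5.88, 6.27, 6.42 and 5.74 FPKM in FBS. Knockout replicate 1 was far below the other 3, and the knockout was called lower (-0.46, SE 0.15, adjusted p = 0.023), a call that was lost when the 8 libraries were fitted alone (adjusted p = 0.0525). Between media 2i was higher (1.07, SE 0.15, adjusted p = 2.68e-05).

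Impact, on chromosome 18, encodes a regulator of the kinase GCN2 and was higher in the knockout and lower in 2i. It stood at 48.6, 47.4, 43.6 and 45.2 FPKM in the knockout, 37.0, 39.2, 31.0 and 42.5 FPKM in wild type in 2i and 54.6, 64.1, 60.8 and 71.0 FPKM in FBS, with no overlap (0.30, SE 0.09, adjusted p = 0.0171 in the knockout, -0.73, SE 0.09, adjusted p = 1.17e-05 between media). Zdbf2, a zinc-finger gene on chromosome 1, had 6.63, 6.37, 5.61 and 6.35 FPKM in the knockout, 4.76, 3.74, 4.83 and 4.93 FPKM in wild type in 2i and 11.1, 13.1, 9.07 and 9.41 FPKM in FBS. The groups were apart (0.38, SE 0.11, adjusted p = 0.011 and -1.06, SE 0.11, adjusted p = 1.47e-06), and the call in the knockout was lost when only the highest of its 2 entries was used (0.33, adjusted p = 0.171). Inpp5f, an inositol phosphatase gene on chromosome 7, had 2.29, 2.23, 1.86 and 1.93 FPKM in the knockout, 1.30, 1.15, 1.78 and 1.48 FPKM in wild type in 2i and 5.13, 5.23, 5.15 and 4.93 FPKM in FBS, and its groups were apart too (0.35, SE 0.08, adjusted p = 0.00407 and -1.34, SE 0.08, adjusted p = 1.66e-08). A variant of this gene is the imprinted form in the brain, and the 1 entry in the table does not separate it. Gab1, a docking protein gene on chromosome 8 that is imprinted in the placenta, had 50.3, 50.8, 47.2 and 49.4 FPKM in the knockout, 45.7, 44.7, 42.2 and 43.3 FPKM in wild type in 2i and 53.9, 50.0, 50.0 and 50.5 FPKM in FBS. Its differences were small, and wild type in 2i did not overlap the knockout or FBS, which overlapped each other (0.17, SE 0.04, adjusted p = 0.00577 and -0.21, SE 0.04, adjusted p = 0.000457). Peg13, a noncoding RNA on chromosome 15, lay between 0.155 and 1.23 FPKM and was not tested.

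Gnas encodes the stimulatory G protein alpha subunit and lies with the antisense noncoding RNA Nespas on chromosome 2. Gnas stood at 138, 153, 134 and 146 FPKM in the knockout, 118, 119, 118 and 121 FPKM in wild type in 2i and 164, 137, 126 and 108 FPKM in FBS. Knockout libraries were above wild type in 2i (0.26, SE 0.09, adjusted p = 0.0391), a call lost without any of 7 libraries in turn (adjusted p = 0.0568 to 0.103), and the media overlapped (-0.15, SE 0.09, adjusted p = 0.159). With only the highest entry of Gnas the knockout difference was 0.09 (adjusted p = 0.471). Most of its FPKM was in 2 entries that start downstream, NR_003258 and NM_201616. The entry NM_022000 (mm9, 174109821 to 174172243) shares the most upstream start with NM_019690. NM_022000 had 2.69, 3.26, 2.26 and 3.24 FPKM in the knockout, 0.927, 0.687, 0.753 and 0.356 FPKM in wild type in 2i, and 3.61, 2.19, 0.552 and 0.342 FPKM in FBS. Knockout and wild type in 2i did not overlap for NM_022000. They overlapped for NM_019690, which averaged 0.177 FPKM in the knockout and 0.104 FPKM in wild type in 2i. No test was made on entries, and the division of reads between them is uncertain. Nespas averaged 1.56 ± 0.172 FPKM in the knockout, 1.77 ± 0.821 FPKM in wild type in 2i and 2.53 ± 0.641 FPKM in FBS (SD, n = 4 each), and was called in neither comparison (-0.07, SE 0.18, adjusted p = 0.777 and -0.38, SE 0.18, adjusted p = 0.0735).

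Igf2r encodes the receptor that clears the growth factor Igf2, and the noncoding RNA Airn is transcribed antisense to it from the paternal copy. Igf2r averaged 20.9 ± 0.845 FPKM in the knockout, 18.8 ± 1.31 FPKM in wild type in 2i and 18.9 ± 1.51 FPKM in FBS, and was called in neither comparison (0.15, SE 0.06, adjusted p = 0.0687 and -0.01, SE 0.06, adjusted p = 0.878). Airn averaged 0.762 ± 0.331 FPKM in the knockout, 0.904 ± 0.325 FPKM in wild type in 2i and 0.641 ± 0.338 FPKM in FBS (SD, n = 4 each), and was not called either (-0.12, SE 0.17, adjusted p = 0.602 and 0.22, SE 0.17, adjusted p = 0.254). The strand setting of the counting is not given in the sources used here, so reads of Airn and Igf2r, and of Nespas and Gnas, may not be told apart where they overlap.

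The fibroblast markers moved with the knockout, and adding their mean level as a covariate changed several calls. With it, 8 members were called higher and 2 lower in the knockout, against 816 higher and 1116 lower over all genes. Of the 21 members called without it, 10 remained called and 21 kept their direction, and 0 were newly called. The 10 were Peg3, Usp29, Snrpn, Ndn, Magel2, Peg10, Plagl1 and Sfmbt2, which were higher, and Ddc and Slc38a4, which were lower. Peg3 was larger with it (1.82, adjusted p = 0.000108). Among the 11 members whose call was lost, the log2 difference with the covariate was smaller for Igf2 and Cdkn1c, as given above, and for Mest (0.51, against 0.86 without it) and Gnas (0.09, against 0.26). It was larger for Impact (0.45, against 0.30) and Zrsr1 (-0.78, against -0.46), and within 0.1 of the value without it for Mkrn3, Ube3a, Gab1, Inpp5f and Zdbf2. The adjusted p of these 11 was 0.0605 to 0.752 with the covariate. The marker level did not overlap between knockout and wild type in 2i, so the covariate and the genotype are partly the same quantity. Between media, 3 members were called higher and 18 lower with the covariate, where 3205 genes were called higher and 3398 lower over all genes, against 4579 and 4349 without it. Markers of other cells moved as well. Of 5 tested neural markers, 5 were called higher in the knockout, with a summed level over the list of 36.4 to 45.7 FPKM in the knockout, 12.2 to 28.1 FPKM in wild type in 2i and 44.3 to 69.6 FPKM in FBS. Of 8 tested trophoblast markers, 4 were called higher and 2 lower in the knockout, and 7 were called lower in 2i than in FBS. Their summed level was 54 to 60 FPKM in the knockout, 35.9 to 51.2 FPKM in wild type in 2i and 164 to 190.3 FPKM in FBS. Of 4 tested endoderm markers, 2 were called higher and 1 lower in the knockout. Without the covariate, 24% of all genes tested were called higher and 21.4% lower in the knockout, and 35.3% lower in 2i than in FBS. The part of these cell types in the levels of the imprinted genes was not tested.

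Genes that set or keep imprints and DNA methylation were listed with the members. Of 24 tested, 10 were called higher and 4 lower in the knockout, and 5 were called higher and 14 lower in 2i than in FBS. The shares over all genes tested were 24% and 21.4% in the knockout, and 37.1% and 35.3% between media. Zfp57, whose protein guards imprints, averaged 168 ± 14.3 FPKM in the knockout, 210.2 ± 12.8 FPKM in wild type in 2i and 103 ± 7.30 FPKM in FBS (-0.32, SE 0.07, adjusted p = 0.00227 and 1.02, SE 0.07, adjusted p = 4.38e-08). The methyltransferase gene Dnmt3a averaged 12.1 ± 1.42 FPKM in the knockout, 6.14 ± 1.75 FPKM in wild type in 2i and 22.7 ± 6.01 FPKM in FBS (0.89, SE 0.20, adjusted p = 0.00306 and -1.72, SE 0.20, adjusted p = 5.44e-06). Its partner Dnmt3l, which has no catalytic activity of its own, rose in the knockout (1.00, SE 0.19, adjusted p = 0.00135) and was lower in 2i than in FBS (-3.20, SE 0.19, adjusted p = 1.73e-08). Dnmt3b was lower in 2i (-3.25, SE 0.17, adjusted p = 4.53e-09) and was not called in the knockout (0.39, SE 0.17, adjusted p = 0.0775). Dppa3 (Stella), which protects imprints in the early embryo, lies on chromosome 6. It averaged 58.5 ± 5.27 FPKM in the knockout, 12.3 ± 1.69 FPKM in wild type in 2i and 47.7 ± 7.14 FPKM in FBS (2.17, SE 0.11, adjusted p = 5.44e-08 and -1.87, SE 0.11, adjusted p = 1.84e-08).

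Others of that list with a log2 difference of at least 0.5 between media, all of them called, were Tet2, a methylcytosine oxidase gene higher in 2i (1.14), and Arid4a, which was also higher (0.81). Lower in 2i were Tet1 (-0.58), the histone methyltransferase genes Setdb1 (-0.50), Ehmt1 (-0.94) and Ehmt2 (-0.64), and the chromatin genes Hells (-0.61), Atrx (-0.65) and Mbd3 (-0.85). In the knockout the log2 differences of these 9 genes lay between -0.25 (Tet2) and 0.42 (Atrx).

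A further list of 50 imprinted genes that are not members, of which 31 were tested, gave other counts. In the knockout 6 were called higher and 11 lower, and in 2i against FBS 13 were called higher and 10 lower. Of all genes tested, 24% were higher and 21.4% lower in the knockout, and 37.1% and 35.3% between media. The 4 called genes with the largest difference in the knockout were Dio3, Cobl, Qpct and Ampd3. Dio3, a deiodinase gene beside the listed members of the Dlk1 domain, averaged 5.69 ± 1.76 FPKM in the knockout, 19.1 ± 6.20 FPKM in wild type in 2i and 0.722 ± 0.323 FPKM in FBS (-1.58, SE 0.21, adjusted p = 0.000105 and 3.52, SE 0.21, adjusted p = 1.78e-08). Cobl, an actin-nucleating gene near Grb10, averaged 11.7 ± 0.675 FPKM in the knockout, 33.2 ± 2.48 FPKM in wild type in 2i and 9.53 ± 1.38 FPKM in FBS (-1.43, SE 0.09, adjusted p = 1.91e-07 and 1.71, SE 0.09, adjusted p = 4e-09). Qpct averaged 4.39 ± 0.551 FPKM in the knockout, 12.2 ± 1.15 FPKM in wild type in 2i and 1.24 ± 0.159 FPKM in FBS (-1.29, SE 0.09, adjusted p = 4.54e-07 and 2.55, SE 0.09, adjusted p = 1.48e-10). Ampd3, an AMP deaminase gene, was lower in the knockout (-0.95, SE 0.07, adjusted p = 4.8e-07). Atp10a, beside the Snrpn domain, was higher in the knockout (0.69, SE 0.08, adjusted p = 1.96e-05) and lower in 2i than in FBS (-1.49, SE 0.08, adjusted p = 3.96e-09), as were the members of that domain.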

How the data were processed

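RNA-seq was made from mouse ESCs in 12 libraries, with Trizol extraction and a TruSeq kit, per the labels' protocols. The submitters' processing notes list Cufflinks, without its version, CASAVA 1.8.2 and the mouse build mm9; no aligner, annotation or strand setting is given in the sources used here. The deposited table holds 1 FPKM value for each RefSeq entry and library, computed by the authors, with its bounds, per the file headers. Such values are scaled to transcript length and library size, so depth cannot be recovered and no count test was run; all tests rest on the spread between libraries and not on the deposited bounds.

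The table held 30761 entries, of which RefSeq (GRCm38.p6) and GENCODE name tables named 98.8%; 362 had no name and stayed under their accession. Nespas was matched as Gnasas1. Entries of a symbol were summed, and 7 genes touched by the 23 entries with a failed estimate were left out. Coordinates of entries are on mm9, 1-based, and promoter windows on GRCm38.p6; builds were not mixed.

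The labels gave the groups. A gene was tested if 4 or more libraries held 1 FPKM or more, which left 12329 genes, fitted on log2(FPKM + 1) with limma (1 mean per group, eBayes with an intensity trend, all 12 libraries). P-values are two-sided, Benjamini-Hochberg adjusted over all genes tested, and called under 0.05. Tfcp2l1 was also tested with an exact permutation test. Alternatives, 11 settings and 12 fits without 1 library, are described in the closing section. No 2 libraries held identical values.

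The members and the other gene lists were chosen with earlier results of these data known. Members called in either comparison are given in every library, those called in neither by group means or by library, and untested ones by their range; regulators are named at an absolute log2 difference of at least 0.5 and further imprinted genes as the 4 largest called in each comparison. The tools were limma 3.58.1 under R 4.3.3, and pandas 2.3.3, numpy 2.4.6 and matplotlib 3.10.9 under Python 3.11.15.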

Additional observations from a re-analysis of the deposited data

Results flagged for a closer look

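Of 99 groups of 4 libraries of the 33 tested members, 8 held a library far from the other 3, where chance gives about 5. In FBS, replicate 4 was the highest library for Meg3 (13.37 FPKM, the others 5.98 to 6.768 FPKM), Rian (12.4 FPKM, the others 3.945 to 4.841 FPKM) and Mirg (3.055 FPKM, the others 0.7145 to 1.08 FPKM). These 3 genes share a domain and are not independent. Knockout replicate 1 was the lowest knockout library for Phlda2 (9.901 FPKM, the others 30.64 to 33.19 FPKM) and for Zrsr1 (6.096 FPKM, the others 10.98 to 11.66 FPKM). In wild type in 2i, replicate 4 was low for Zrsr1 (12.93 FPKM, the others 14.09 to 14.3 FPKM), and replicate 2 was low for Zdbf2 (3.736 FPKM, the others 4.759 to 4.928 FPKM). In FBS, replicate 1 was high for Gab1 (53.93 FPKM, the others 49.96 to 50.47 FPKM).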

How the results depend on the processing

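The knockout call was lost without 1 library in 7 fits each for Mest and Gnas, and the Sgce call between media in 4. No member called in the main analysis turned its direction under any of the 23 alternatives. With the fibroblast marker level as a covariate, 8 members were called higher in the knockout, against 18 without it, and 816 genes were called higher and 1116 lower over all genes, against 2954 and 2635; the cause was not tested. Uncalled members turned in the knockout as follows: Nnat under quantile normalization (-0.01) and with the highest entry (-0.07), and Igf2r with the covariate (-0.02). Between media Airn turned with the covariate (-0.14). Without 1 library in turn, uncalled knockout differences ranged over -0.20 to 0.47 for Sgce, -0.01 to 0.13 for Nnat, -0.47 to 0.37 for Meg3, -0.69 to 0.10 for Mirg, -0.11 to 0.05 for Dlk1, -0.26 to 0.17 for Slc22a18 and -0.20 to 0.10 for Nespas, and the Igf2r difference between media over -0.05 to 0.03. Members called higher in 2i than in FBS numbered 4 to 7 without 1 library, with 7 when wild type in 2i replicate 3 was left out. Over all genes tested, 4373 to 4663 were called higher in these fits.

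Pseudocounts of 0.1 and median-ratio scaling changed no call of a member, and neither did a filter of 5 FPKM among the members it left. No scaling moved the median of all genes by over 0.1. Replicate numbers were not taken as a pairing, since the labels tie them to no shared culture or day and not every same-numbered pair correlated at over 0.1. The deviations of same-numbered libraries correlated at 0.06 to 0.26 for the knockout comparison, where 3 of 4 libraries matched best with their own number, and at 0.03 to 0.19 for the media, where 2 of 4 did, a hint from the data and not from the design. With the replicate block, 18 members were called higher and 3 lower in the knockout, and 6 higher and 21 lower in 2i against FBS. Over all genes tested, that setting called 2925 higher and 2642 lower in the knockout, and 4582 higher and 4317 lower between media. The calls gained between media were Meg3 (1.07, adjusted p = 0.0102) and Slc38a4 (0.22, adjusted p = 0.0198), higher in 2i, and Nespas (-0.38, adjusted p = 0.0091), lower in 2i. Depth is unknown, so low members such as Rtl1 and Kcnq1ot1 cannot be compared.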
